A study of Mus musculus with 8 samples.

Results

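The Notch pathway of the embryonic striatal primordium is described here through 34 genes, chosen by name and role. They are the receptors, their ligands, the enzymes that cleave the receptor and the Fringe modifiers. Regulators of endocytosis and ubiquitination, the nuclear complex, the Hes and Hey genes and Nrarp complete the list. All 34 were found among the 16913 genes listed in the authors' deposited table. RNA had been sequenced from the lateral ganglionic eminence (LGE), the germinal zone and mantle that give rise to striatal projection neurons, dissected at embryonic day 14.5 from mice of mixed C57BL/6J and CD1 background. The 4 Meis2-CKO samples were Dlx5/6-Cre;Meis2F/F, with 2 floxed Meis2 alleles, and the 4 littermate control samples were Dlx5/6-Cre;Meis2F/+, with 1 floxed allele. Both groups therefore carried the Cre driver, which acts in Dlx-expressing cells of the ventral forebrain, and the controls were not wild type. Cells outside that lineage, including progenitors that have not yet switched on the Dlx5/6 enhancer, keep their Meis2 alleles in a sample of dissected tissue.

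Notch signalling passes between neighbouring cells. A Delta or Jagged ligand on one cell pulls on a Notch receptor of the next, ADAM proteases and then gamma-secretase cut the receptor, and the freed intracellular domain joins RBPJ and a Mastermind protein on DNA to switch on Hes and Hey repressors. In the embryonic brain this keeps radial glia in the progenitor state and holds back proneural factors, while cells that leave the cycle carry more ligand. Meis2 encodes a TALE homeodomain factor made by the Dlx-positive precursors and young neurons of the LGE.

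No Notch pathway gene passed the threshold in the Meis2-CKO LGE. At an adjusted p of 0.05 in the authors' deposited table, 0 of 34 members rose and 0 fell, where 0.78% of all listed genes passed (132 of 16913, 40 higher and 92 lower). All 34 members have at least 300 nt of exon, and with p-values adjusted again among such genes 51 of 16451 passed and again no member. At an unadjusted p of 0.05, 1 of 34 members, Mfng, lay above 0 and none below, against 2.17% of all genes (367 of 16913). Neither the labels nor the header name the tool that produced these p-values. In direction, 22 members lay above 0 and 12 below when centred on the median of all genes, which sets that median to 0. As deposited by the authors, 23 of the 34 members had a log2 fold change above 0 and 11 below it, while 53.3% of all listed genes lay above 0. The median was 0.06 for the members and 0.01 for all genes, and the middle 50% of members ran from -0.04 to 0.14. No member differed 1.5-fold, and 5 differed by more than 1.2-fold, 4 of them higher and 1 lower in the authors' deposited table, where 9.51% of all genes were higher and 11.9% lower by that much. A p that misses the threshold does not show that a gene was unchanged.

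The values behind these statements are the authors' means of each genotype, so no spread between samples can be given with them, and the labels do not say whether a sample is 1 embryo or a pool, and the sequencing depth is unknown. The unit of the means is not named in the header. The means behaved as values scaled by transcript length: in the shortest of 5 bins of protein-coding genes, with a median exon length of 1724 nt, the median level was 8.72 in Meis2-CKO and 9.18 in control, and in the longest, with a median of 10060 nt, it was 14.3 in Meis2-CKO and 14.2 in control. Levels of different genes are compared below on that scale only. The deposited log2 fold changes are not the plain ratios of the means. Over 7823 genes with an average of at least 10 they lay a median of 0.0124 above them, and the 2 columns differ in their sums, 543246 for Meis2-CKO and 547952 for control. In bulk tissue, fewer cells of a type and less RNA per cell cannot be told apart.

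The labels were checked first on the targeted gene and on the tissue. Meis2 averaged 140 in Meis2-CKO and 204 in control (log2 fold change -0.53, adjusted p = 0.00195, both from the authors' deposited table); the value covers the whole gene, including transcripts without the floxed exons. All 13 genes fixed as markers of the ventral germinal zone and striatal precursors were present, from Gsx1 at 1.64 in Meis2-CKO and 1.59 in control up to Dlx1 at 496 and 393, and 4 of them fell in the authors' deposited table: Isl1, Ebf1, Foxp1 and Meis2. None rose, although 8 lay above 0, and 5 of these, Dlx1, Dlx2, Dlx5, Sp8 and Sp9, had an unadjusted p under 0.05. All 5 genes below 0 also had an unadjusted p under 0.05. Besides the 4 that fell these include Six3, at 16.7 in Meis2-CKO and 25.5 in control (log2 fold change of -0.59). The Y-linked gene Eif2s3y stood at 14 in Meis2-CKO and 50.5 in control, and fell (adjusted p = 1.02e-16 in the authors' deposited table). Ddx3y and Kdm5d, also Y-linked, fell as well (log2 fold changes of -1.77 and -1.63 in the authors' deposited table). Uty was lower without passing (-1.42). Sex-linked genes thus differed between the groups. Xist stood at 256 in Meis2-CKO and 78.0 in control and did not pass (adjusted p = 0.985, unadjusted p = 0.0136 in the authors' deposited table). No member lies on the X or Y chromosome. The part of sex in the values below was not tested.

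**Figure D1:**
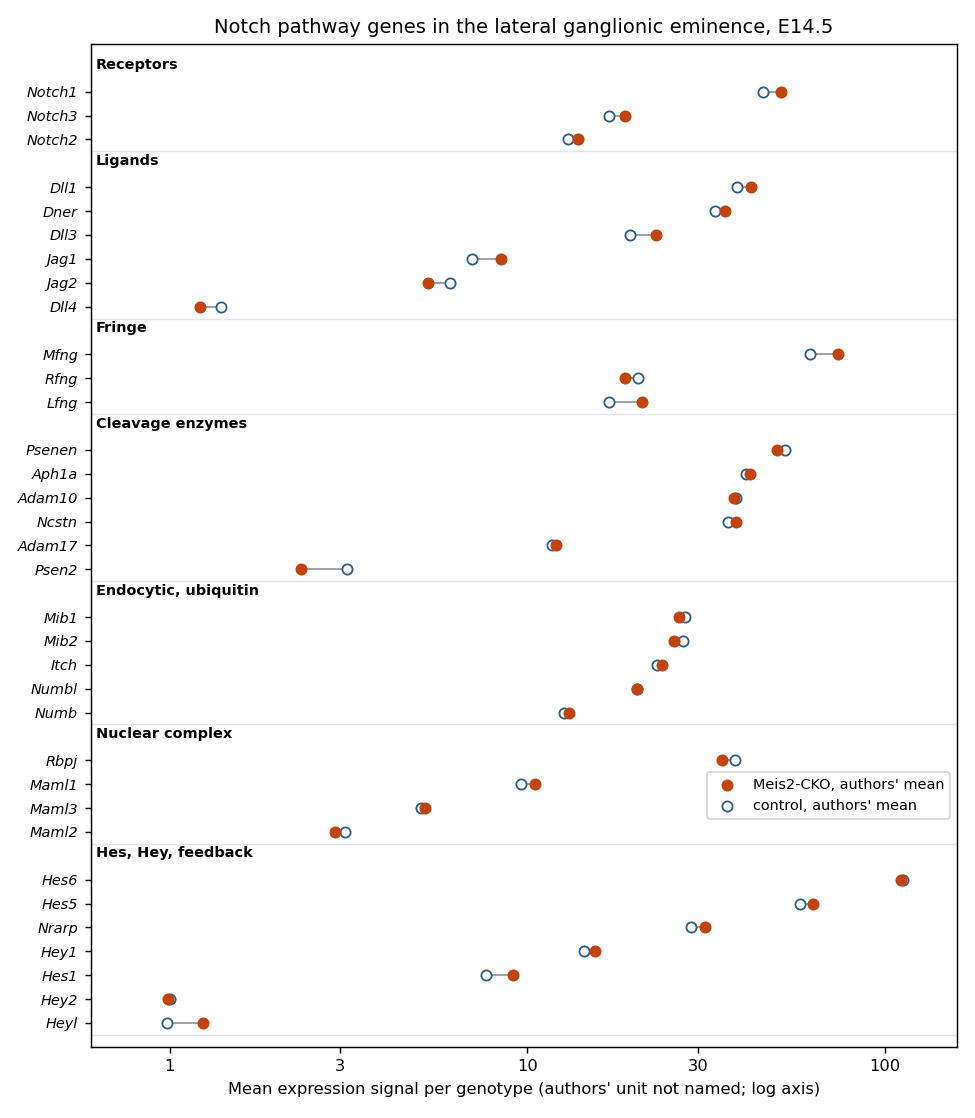
Mean expression signal of each Notch pathway gene (log axis, authors' unit not named) in Meis2-CKO (filled circles) and control (open circles), grouped by role; each circle is the authors' mean of 1 genotype and carries no error. The levels span from about 1, for Hey2 and Heyl, to 111 in Meis2-CKO and 113 in control for Hes6. The circles of a gene lie farthest apart for Psen2, at 2.33 in Meis2-CKO and 3.14 in control.

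The receptors Notch1, Notch2 and Notch3 had slightly higher means in Meis2-CKO, and none passed. Notch4, a receptor of endothelium that belongs to the second list described further on, averaged 5.09 in Meis2-CKO and 4.80 in control. Notch1, the main receptor of radial glia, averaged 51.2 in Meis2-CKO and 45.6 in control. Its log2 fold change was 0.18 in the authors' deposited table (unadjusted p = 0.22). Notch3, which is also a receptor of vascular mural cells, averaged 18.8 in Meis2-CKO and 16.9 in control. Notch2, which shares progenitor expression with Notch1, averaged 13.9 in Meis2-CKO and 13.0 in control. The order of the 3 members, Notch1 over Notch3 over Notch2, was the same in both genotypes, and the smallest unadjusted p among them was that of Notch1. Notch1 (chromosome 2, 26457903 to 26516663 on GRCm38) shares 1068 of its 14232 exon bases with 0610009E02Rik and 2.91% of them with Gm13568, both on the other strand. The first stood at 4.08 in Meis2-CKO and 3.36 in control, Gm13568 at 25.5 in Meis2-CKO and 21.4 in control, and, with no strand stated for the counting, reads of the overlap could belong to either.

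Ligands went both ways. Dll1, the Delta ligand of newborn neuronal precursors, averaged 42.2 in Meis2-CKO and 38.7 in control, the highest of the 6 in both genotypes. Dner, a transmembrane protein with Delta-like repeats described as an atypical Notch ligand of neurons, averaged 35.8 in Meis2-CKO and 33.6 in control. Dll3, a Delta relative that acts within the cell and does not activate receptors on its neighbours, averaged 23.0 in Meis2-CKO and 19.4 in control. These 3 ligands had the highest levels of the 6 in both genotypes, and their log2 fold changes in the authors' deposited table were 0.14 for Dll1, 0.10 for Dner and 0.26 for Dll3.

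The Jagged ligands lay at lower levels and on opposite sides of 0. Jag1 averaged 8.43 in Meis2-CKO and 6.99 in control (log2 fold change of 0.28 in the authors' deposited table), while Jag2 averaged 5.27 in Meis2-CKO and 6.07 in control (-0.19). Dll4, a ligand best known from growing blood vessels, stood near the bottom of the range at 1.22 in Meis2-CKO and 1.39 in control. Of 8 endothelial markers 4 lay above 0 and 4 below and none passed in the authors' deposited table; their median log2 fold change was -0.0012, and their summed level was 53.95 in Meis2-CKO and 53.955 in control. Of 5 pericyte markers 3 lay above 0, none passed, and the summed level was 22.5 in Meis2-CKO and 21.5 in control, with every marker above 0 in both genotypes. The part of these cells in the values of Dll4, Notch3 and Heyl was not tested. The smallest unadjusted p among the ligands was 0.245, that of Dll3.

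The Fringe genes, which encode glycosyltransferases that extend the sugar on Notch and tune its choice between Delta and Jagged, held the member with the smallest p. Mfng averaged 73.9 in Meis2-CKO and 61.9 in control, 1.2-fold higher (log2 fold change of 0.27 in the authors' deposited table, unadjusted p = 0.0364), but its adjusted p was 0.999987. It had the second highest level of all 34 members in both genotypes, behind Hes6. In the authors' deposited table Lfng had the largest log2 fold change of the members, 0.31 (unadjusted p = 0.177), at 21 in Meis2-CKO and 17.0 in control. Rfng lay the other way, at 18.8 in Meis2-CKO and 20.4 in control. The means of Lfng and Rfng stood in reversed order in the genotypes, Lfng over Rfng in Meis2-CKO and Rfng over Lfng in control. Neither gene passed, and their difference from each other was not tested.

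Of the genes for enzymes that cut the receptor, all but Psen2 had similar means in both genotypes, and none passed. Adam10, the protease of the first cut, averaged 38 in Meis2-CKO and 38.3 in control, with a log2 fold change of 0.0014 in the authors' deposited table. Adam17, a related sheddase, averaged 12.1 in Meis2-CKO and 11.8 in control. Of the gamma-secretase subunits, Psenen averaged 50.1 in Meis2-CKO and 52.5 in control. Aph1a, a scaffold subunit, averaged 42.1 in Meis2-CKO and 41.0 in control, and Ncstn, which receives the substrate, averaged 38.3 in Meis2-CKO and 36.5 in control. These 5 genes had log2 fold changes between -0.06 and 0.08 in the authors' deposited table. Psen2, one of the catalytic presenilins, had the lowest log2 fold change of all members, -0.40 in the authors' deposited table (unadjusted p = 0.503). It stood at 2.33 in Meis2-CKO and 3.14 in control, among the lowest levels of the list.

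Regulators of endocytosis and ubiquitination lay between -0.07 and 0.06 on the log2 scale in the authors' deposited table. Mib1, the E3 ligase that lets ligands be internalised, averaged 26.6 in Meis2-CKO and 27.7 in control, and its relative Mib2 averaged 25.8 in Meis2-CKO and 27.3 in control. Itch, a ligase that targets Notch itself, averaged 23.8 in Meis2-CKO and 23.1 in control. The adaptors that antagonise Notch and are shared out at progenitor division were both listed: Numbl averaged 20.3 in Meis2-CKO and 20.3 in control, and Numb averaged 13.1 in Meis2-CKO and 12.7 in control. The smallest unadjusted p among these 5 genes was 0.727.

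In the nuclear complex 2 of 4 genes, Maml1 and Maml3, lay above 0 and 2, Rbpj and Maml2, below it. Rbpj, which binds DNA and recruits the Notch intracellular domain, averaged 35.0 in Meis2-CKO and 38.1 in control (log2 fold change of -0.11 in the authors' deposited table, unadjusted p = 0.511). Of the Mastermind coactivators, Maml1 averaged 10.5 in Meis2-CKO and 9.62 in control, Maml3 averaged 5.17 in Meis2-CKO and 5.04 in control, and Maml2 averaged 2.89 in Meis2-CKO and 3.1 in control. Rbpj exceeded each Mastermind gene in level in both genotypes, and no gene of this role passed.

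**Figure D2:**
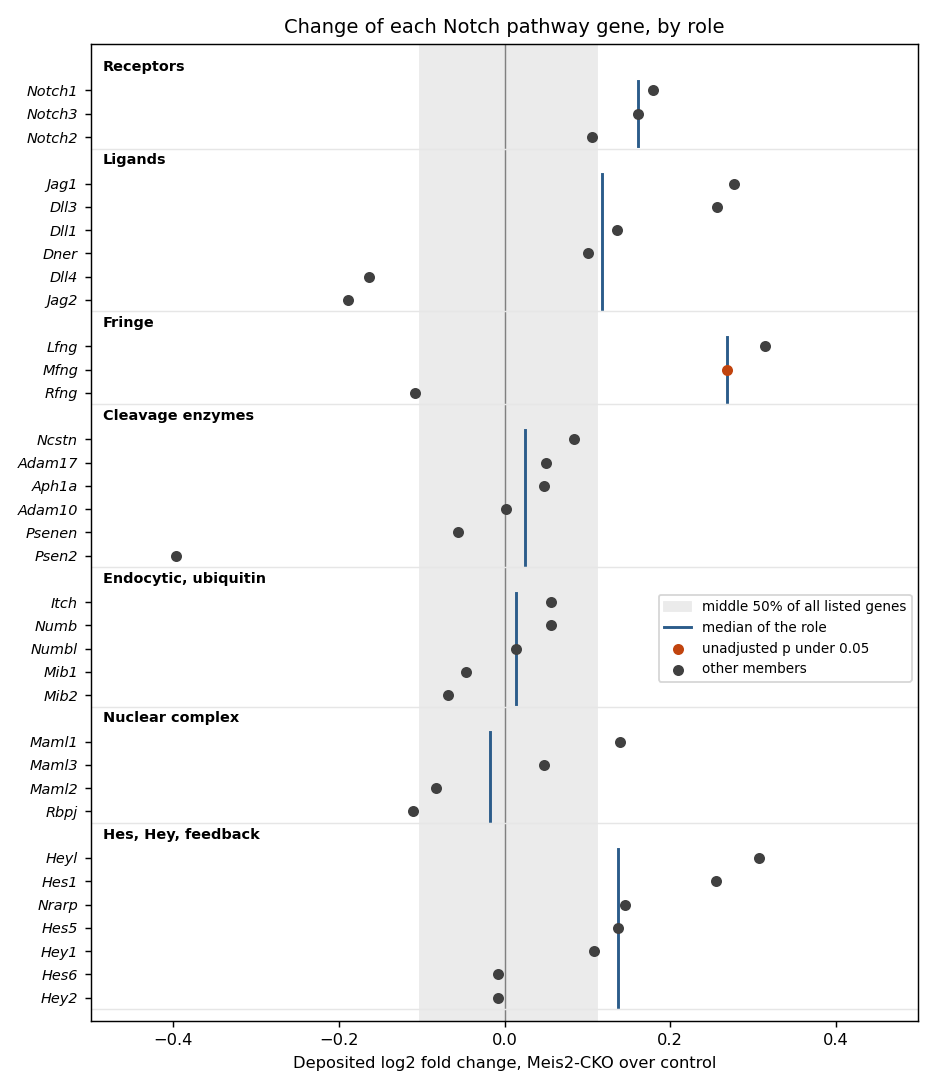
Deposited log2 fold change of each Notch pathway gene, Meis2-CKO over control (horizontal axis), by role; blue lines are role medians and the grey band holds the middle 50% of all listed genes (-0.10 to 0.11). Mfng, in orange, is the member with an unadjusted p under 0.05, and Psen2, at -0.40, lies farthest from 0.

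Hes and Hey genes such as Hes1, Hes5 and Hey1 are the usual read-out of the pathway, since the nuclear complex acts on their promoters. The role also holds the feedback gene Nrarp, and Hes6, which acts against Hes1 and is described below. Of the 7 genes of this role 5 lay above 0 and 2 below in the authors' deposited table, with a median log2 fold change of 0.14, and none passed. Hes5, a repressor that maintains radial glia, averaged 63.1 in Meis2-CKO and 57.9 in control (log2 fold change of 0.14 in the authors' deposited table, unadjusted p = 0.307). Hes1, its partner in that role, averaged 9.10 in Meis2-CKO and 7.67 in control (0.26, unadjusted p = 0.463 in the authors' deposited table). Nrarp, a target that feeds back to destabilise the Notch intracellular domain, averaged 31.4 in Meis2-CKO and 28.7 in control. These 3 genes had higher means in Meis2-CKO, with folds of 1.10 to 1.19 in the authors' deposited table, and the smallest unadjusted p of the role was that of Hes5.

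Hes6 differs from these genes in function, and its difference from them in log2 fold change was not tested. It encodes a relative that counteracts Hes1 and promotes neuronal differentiation, and it had the highest level of all members, 111 in Meis2-CKO and 113 in control, with a log2 fold change of -0.0075 in the authors' deposited table. Among the Hey genes, Hey1 averaged 15.5 in Meis2-CKO and 14.5 in control. Hey2 and Heyl, both also known from vessels and heart, were near 1: Hey2 at 0.985 in Meis2-CKO and 1 in control, and Heyl at 1.24 in Meis2-CKO and 0.983 in control. Of these 3 Hey genes, Hey1 alone was above 10 in both genotypes, and the smallest unadjusted p among them in the authors' deposited table was its own, 0.680.

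Promoter windows are shown for Hes5, a target at high level, for Lfng, the member with the highest log2 fold change, and for Hes6, the member with the highest level. Those of Hes5 and Lfng each hold a pair of matches to TGGGAA, the core that RBPJ binds, as do the window of Hey2 and 1 of the windows of Rbpj. Hes6 has 2 windows, neither with a match to TGGGAA, and the 1 whose start lies farther upstream is shown; the other holds no match to either motif. Windows run from 250 bases before to 50 bases after the start, 5′ to 3′ on the gene's strand, from RefSeq on GRCm38.p6. They lie at chr4:154960673-154960972 for Hes5, plus strand, chr5:140607091-140607390 for Lfng, plus strand, and chr1:91413989-91414288 for Hes6, minus strand. Capitals mark TGGGAA or its complement in Hes5 and Lfng, and in Hes6 a match to TGACAG, the core bound by MEIS proteins.
Hes5: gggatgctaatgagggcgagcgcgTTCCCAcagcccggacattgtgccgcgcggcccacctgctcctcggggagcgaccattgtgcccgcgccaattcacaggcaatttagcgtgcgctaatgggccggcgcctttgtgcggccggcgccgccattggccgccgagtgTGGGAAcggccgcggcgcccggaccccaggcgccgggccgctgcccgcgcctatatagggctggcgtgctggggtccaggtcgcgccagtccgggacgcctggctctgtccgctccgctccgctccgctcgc
Lfng: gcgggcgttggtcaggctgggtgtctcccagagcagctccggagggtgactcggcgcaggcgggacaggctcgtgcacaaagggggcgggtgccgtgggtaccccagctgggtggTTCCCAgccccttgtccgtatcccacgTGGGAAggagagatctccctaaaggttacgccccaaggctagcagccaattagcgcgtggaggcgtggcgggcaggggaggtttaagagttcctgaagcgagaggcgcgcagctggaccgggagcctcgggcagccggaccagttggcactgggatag
Hes6: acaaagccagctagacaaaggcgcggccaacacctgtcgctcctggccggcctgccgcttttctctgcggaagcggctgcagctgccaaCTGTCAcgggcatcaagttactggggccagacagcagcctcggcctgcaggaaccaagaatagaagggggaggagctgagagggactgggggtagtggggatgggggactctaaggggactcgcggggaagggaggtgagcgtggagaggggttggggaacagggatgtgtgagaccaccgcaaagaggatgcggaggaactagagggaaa
In Hes5 the matches begin 226 and 82 bases before the start, on opposite strands, and in Lfng 135 and 108 bases before it. Either strand was searched, and the motifs do not overlap each other in these windows. TGGGAA occurred in 10 of 37 member windows, from 9 of the 28 members with a window, while 25.6% of all 32851 windows held it. TGACAG occurred in 9 of 37 member windows, against 19.2% of all windows. Several genes have more than 1 window, some overlapping, and Hes1, Hey1, Heyl, Mfng, Mib1 and Itch had none in the RefSeq table. A match describes these letters and is not a bound site.

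Annotation bears on several of these values. Exon bases were shared with another listed gene by 10 of the 34 members, in 9 of them with a gene on the opposite strand. Nrarp shares 79.4% of its exon bases with Gm38287, which stood at 0.548 in Meis2-CKO and 0.643 in control. Hes5 shares 31.8% with Gm20421, at 6.90 in Meis2-CKO and 7.29 in control. For Dll1 the share is 20.5%, with A930024N18Rik, at 0.968 in Meis2-CKO and 1.16 in control. These 3 partners were listed far below their Notch pathway genes. Ncstn shares 4.91% of its exon bases with Copa, which was listed above it, at 73.2 in Meis2-CKO and 72.9 in control. Psenen shares 9.33% and 8.71% with 2 gene IDs listed as U2af1l4, the first at 35.9 in Meis2-CKO and 35.5 in control and the other at 10.9 in Meis2-CKO and 11.1 in control. How such shared bases were counted is not stated in the labels or the header.

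**Figure D3:**
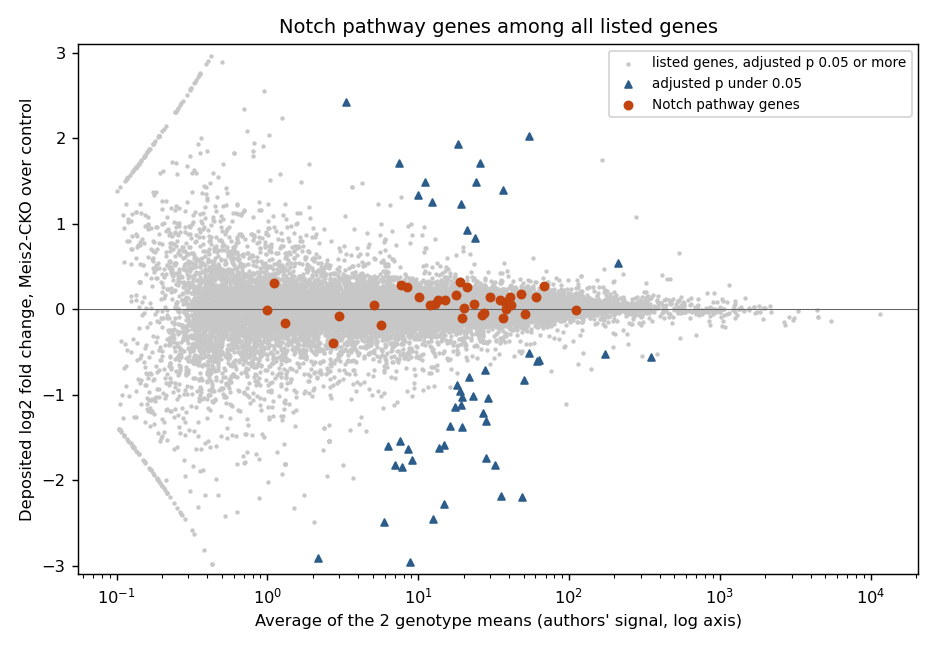
Deposited log2 fold change, Meis2-CKO over control (vertical axis), against the average of both genotype means (log axis) for all listed genes (grey), genes with an adjusted p under 0.05 (blue triangles) and the Notch pathway genes (orange); 190 genes beyond 3 on the log2 scale or with an average under 0.1 are not drawn. The members lie between -0.40 and 0.31, inside the band of genes that did not pass.

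The smallest change that passed differed between levels. Genes of at least 300 nt of exon were therefore read in 4 bands of the average of both means. The genes named as limits were picked by their values from the few that passed in a band, and they do not set a limit of detection. Between 60 and 120, where Mfng, Hes5 and Hes6 lie, 2 of 941 genes passed. The smallest change that passed there in the authors' deposited table was that of L1cam, with a log2 fold change of -0.60, and Mfng had the largest of the 3 members, 0.27. Between 20 and 60, with 14 members, 16 of 3524 genes passed. The smallest passing change was that of Klhl13 at -0.51, and the largest member change was 0.26, that of Dll3. Between 5 and 20, with 12 members, 23 of 4724 genes passed. The smallest passing change was that of Socs2 at -0.89, and the largest member change was 0.31, that of Lfng. In the lowest band, from 0.5 to 5, 12 of 5099 genes passed and the smallest passing change was 2.42, while Psen2, the farthest of its 5 members, stood at -0.40. Differences of the size seen in the Notch pathway were thus below every change that passed at the same level.

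Direction also moved with level over all genes. The share of genes above 0 in the authors' deposited table was 49.5% in the lowest band, 54.7% from 5 to 20, 57.1% from 20 to 60 and 62.0% from 60 to 120. The members above 0 were 1 of 5, 10 of 12, 10 of 14 and 2 of 3 in these bands. The median log2 fold change from 5 to 20 in the authors' deposited table was 0.11 for the 12 members and 0.02 for all 4724 genes, and from 20 to 60 it was 0.05 for the members and 0.02 for 3524 genes.

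Other genes of the pathway were read in the same way. A second list named 39 genes around the core, such as the remaining receptor, O-glycosylation enzymes, Deltex and Neuralized ligases, corepressors and coactivators, and 35 of them were listed. None passed, 23 lay above 0 and 12 below in the authors' deposited table, and the median log2 fold change was 0.06. Tle4, a Groucho corepressor used by Hes proteins, had the smallest p: it averaged 9.59 in Meis2-CKO and 15.6 in control (log2 fold change of -0.68 in the authors' deposited table, unadjusted p = 0.0188, adjusted p = 0.999987). Its relative Tle2 averaged 14.4 in Meis2-CKO and 10.3 in control (log2 fold change of 0.49 in the authors' deposited table, unadjusted p = 0.0904). These related corepressors lay on opposite sides of 0, and their difference from each other was not tested.

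The Gene Ontology annotation in the table gives a wider view that does not depend on the member list. It marks 85 listed genes with the term Notch signaling pathway, 26 of them members. Of the 59 that are not members, none had an adjusted p under 0.05 or an unadjusted p under 0.05, 34 lay above 0, and the median log2 fold change was 0.03 in the authors' deposited table. Several of the 59, among them Notch4 and Dtx1, are also on the second list, so these lists are not separate views.

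Markers of the cells that carry the pathway were read beside it. All 8 radial glia and progenitor markers lay above 0 in the authors' deposited table, with a median log2 fold change of 0.24, and none passed. Their summed level was 1781 in Meis2-CKO and 1572 in control, of which Fabp7 alone held 968 in Meis2-CKO and 860 in control. Nes averaged 126 in Meis2-CKO and 104 in control, and Sox2 142 in Meis2-CKO and 121 in control. Of these 8 markers Nes alone had an unadjusted p under 0.05. Of 8 neuronal markers 3 lay above 0 and 5 below, with a median of -0.08, and none passed. Their summed level was 1681 in Meis2-CKO and 1841 in control, of which Tubb3 alone held 801 in Meis2-CKO and 887 in control. Among the neuronal markers below 0, 3 had an unadjusted p under 0.05, Stmn2, Gap43 and Ina, and none of those above 0 did. The pallial list had a median of 0.25 over 6 genes, all above 0, with Neurog2 at 27.4 in Meis2-CKO and 19.2 in control. None of the 6 passed, and Neurog2 alone had an unadjusted p under 0.05. No marker passed in the lists of medial eminence (3 genes, median 0.17), microglia and macrophages (6 genes, 0.03) or red blood cells (6 genes, 0.04) in the authors' deposited table. The role medians were 0.27 for the Fringe genes, 0.16 for the receptors, 0.14 for the Hes, Hey and feedback genes, 0.12 for the ligands, 0.02 for the cleavage enzymes, 0.01 for the endocytic and ubiquitin regulators and -0.02 for the nuclear complex, and the part of cell composition or of neighbouring pallium in them was not tested.

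**Figure D4:**
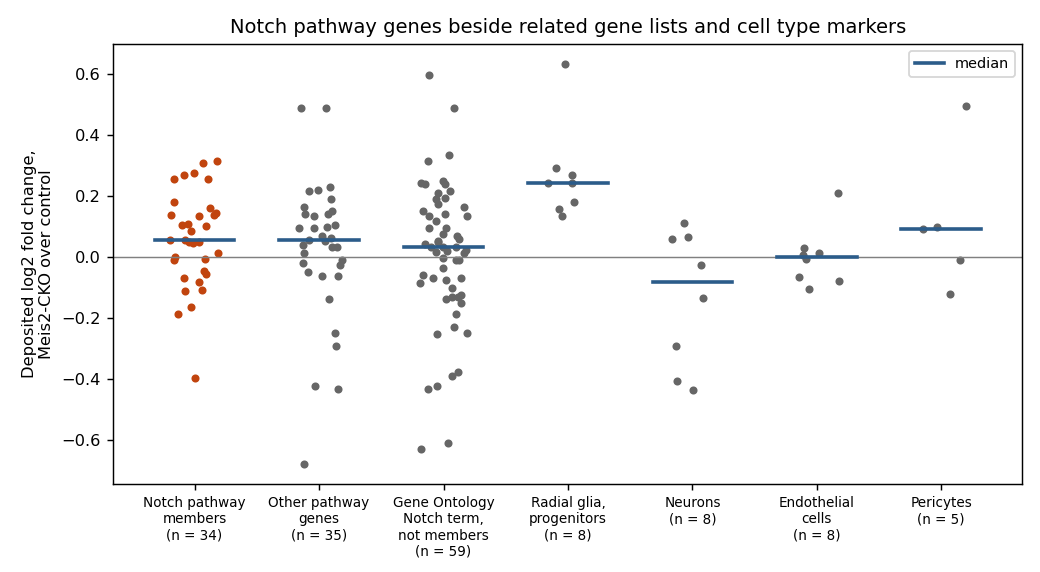
Deposited log2 fold changes, Meis2-CKO over control (vertical axis), of the 34 Notch pathway genes (orange), the 35 other pathway genes, the 59 genes of the Gene Ontology term that are not members, and markers of 4 cell types. Each point is a gene in a list and each blue line a median. Several of the 59 are drawn in another list too, such as Notch4 among the other pathway genes and Sox9 among the radial glia markers. The medians are 0.06, 0.06 and 0.03 for the Notch lists, 0.24 for radial glia and progenitors, -0.08 for neurons, -0.0012 for endothelial cells and 0.09 for pericytes.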

How the data were processed

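RNA of 4 Meis2-CKO and 4 control samples was sequenced. The submitters' processing notes name FastQC 0.11.5, HISAT2 2.1.0 and StringTie 1.3.1, with no roles, and the mouse builds mm10 and GRCm38.p2. The deposited table gives a mean expression signal per genotype, which the authors averaged over samples, per the file headers. The authors' log2 fold change, p-value and adjusted p-value, which equals a Benjamini-Hochberg adjustment over all 16913 genes, were taken as deposited. The 8 columns of single libraries have names that match no sample label and were not used, so fits across libraries planned in the design were not made, and depth and spread between samples are unknown.

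Members were matched by symbol; exons came from GENCODE M21 (GRCm38, 16861 genes matched by Ensembl ID) and promoter windows from RefSeq. All members were named, by role, with the 2 genes of smallest p from the second pathway list. Members and lists were chosen with earlier results of these data known; level bands, the Gene Ontology term and the MEIS motif were added later. The result for 1 gene outside the members is not reported here. The adjustment and the motif search were tested on simulated data. Python 3.11.15, numpy 2.4.6, pandas 2.3.3 and matplotlib 3.10.9 were used.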

Additional observations from a re-analysis of the deposited data

How the results depend on the processing

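The count of 0 members past the threshold was the same under all 5 alternatives: an adjusted p of 0.1, the Benjamini-Yekutieli adjustment, a fold change of at least 1.5, and p-values adjusted again among 13899 genes with a higher mean of at least 1 or among 16451 genes of at least 300 nt of exon. From a count of 0, the Benjamini-Yekutieli adjustment and the fold change filter could only have removed genes, so their outcome was fixed. The lowest deposited adjusted p of any member was 0.999987, so a cut of 0.1 could not have added one either. The number of all genes passing ranged from 51, with the short genes left out, to 140. The median log2 fold change of the members, 0.06 as deposited, was 0.042 from the means with a pseudocount of 1, 0.044 with a pseudocount of 0.1 and 0.044 when centred on the median of all genes; no member was lost to a minimum mean of 1. The number of members above 0, 23 as deposited, was 22 when centred on the median of all genes. By the plain ratio of the means, a comparison added after the data were seen, it was also 22, and 49.8% of all listed genes had the higher mean in Meis2-CKO. Of 68 recomputed values of single genes 66 kept their direction. Adam10 did not, at -0.011 with a pseudocount of 1 and -0.010 when centred, against 0.0014 as deposited. No paired analysis was possible because the columns of single libraries carry names that match no sample label. For the same reason leaving out each library, a replicate block and another tool or normalization per library were not run. Genotype means without a spread or a depth limit all statements on single genes.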
